A study of Mus musculus with 6 samples.

Results

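The disease-associated microglia genes examined here are Itgax, Clec7a, Trem2, Tyrobp, Axl, Lyz2, Cst7, Lpl, Spp1 and Lgals3, 10 of the 38355 genes with counts. They were chosen by name as genes of activated microglia, and matched to the counts by Ensembl identifier. The choice was made with the values of the same age comparison in view, so the age differences of these 10 genes are given as a description, without a p-value, and nothing is concluded from them. PolyA RNA came from whole cortical hemispheres of C57BL/6 wild-type mice, 3 aged 6 months and 3 aged 16 months, and neither group is labelled with a treatment or transgene. According to the methods, in their section on sorted cells, the mice sequenced for RNA were male. The housing text among the labels gives the younger age as 3 months, whereas every other label and the study's methods give 6 months. Because whole tissue was sequenced, fewer cells of a type and less RNA per cell cannot be told apart.

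Microglia are the resident macrophages of the brain. In the healthy brain they carry a homeostatic program with genes such as P2ry12, Tmem119 and Cx3cr1. Near amyloid plaques, dying neurons or damaged myelin they switch to a program called the disease-associated state, in which phagocytic, lysosomal and lipid-handling genes are switched on, and similar cells are known from the aged brain. The first step of this program is described as independent of the receptor TREM2 and includes Tyrobp and Lyz2. The full program depends on TREM2 and includes Itgax, Clec7a, Cst7, Axl, Lpl, Spp1 and Trem2 itself.

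The stretches directly before the transcription start of Itgax, Clec7a, Spp1 and Lyz2, which were 4 of the genes with the lower levels described below, are shown with short motifs in capitals. The motifs searched on both strands were GAGGAA, the core bound by the myeloid factor PU.1, TGANTCA, the site of AP-1 factors, and CACGTG, the E-box bound by MITF and TFEB. No match to one motif overlapped a match to another in the members. Each line holds 250 bases up to the start, 5′ to 3′ on the strand of the gene, from the RefSeq annotation of GRCm38.p6. The stretches lie at chr7:128129300-128129549 on the plus strand, chr6:129472780-129473029 on the minus strand, chr5:104434861-104435110 on the plus strand and chr10:117282273-117282522 on the minus strand, in this order.
Itgax: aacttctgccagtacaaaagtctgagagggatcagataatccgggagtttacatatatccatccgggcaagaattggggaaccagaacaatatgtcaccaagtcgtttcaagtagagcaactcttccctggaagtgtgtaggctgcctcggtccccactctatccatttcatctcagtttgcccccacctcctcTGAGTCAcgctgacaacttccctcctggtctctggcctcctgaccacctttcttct
Clec7a: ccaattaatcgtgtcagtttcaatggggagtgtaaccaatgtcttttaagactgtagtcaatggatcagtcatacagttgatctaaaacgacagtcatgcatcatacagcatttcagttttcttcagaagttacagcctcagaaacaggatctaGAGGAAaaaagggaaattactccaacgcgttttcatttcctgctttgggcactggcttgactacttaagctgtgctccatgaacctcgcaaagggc
Spp1: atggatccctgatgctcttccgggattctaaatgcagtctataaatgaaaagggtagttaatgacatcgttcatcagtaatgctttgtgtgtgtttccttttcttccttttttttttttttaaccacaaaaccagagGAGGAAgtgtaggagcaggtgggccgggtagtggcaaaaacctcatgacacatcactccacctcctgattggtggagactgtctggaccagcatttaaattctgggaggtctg
Lyz2: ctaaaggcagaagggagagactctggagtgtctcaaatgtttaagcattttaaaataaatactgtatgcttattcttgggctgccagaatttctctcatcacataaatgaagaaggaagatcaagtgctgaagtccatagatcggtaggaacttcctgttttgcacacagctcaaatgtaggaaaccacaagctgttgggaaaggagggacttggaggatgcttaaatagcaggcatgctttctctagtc

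Itgax holds an AP-1 match that begins 56 bases before the start. Clec7a and Spp1 hold a PU.1 core, at 96 and 113 bases before the start. The stretch of Lyz2 holds none of the 3 motifs. Among the 8 members with an entry, GAGGAA was found in 4 (Trem2, Clec7a, Axl and Spp1), against 23.3% of the 32851 promoter stretches of the same length. TGANTCA was found in 2 of the 8 (Trem2 and Itgax), against 6.75% of all stretches, and CACGTG in 0 of the 8, against 6.02%. These are matches of letters and say nothing about whether a factor binds there.

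Total counts on genes lay between 29797253 and 46519280 per sample, so that 1 count corresponded to between 0.0213 and 0.0333 CPM, the count relative to the TMM-scaled library total. In the samples of 16 months, the deviations from the age mean followed the GC content of the genes with r = 0.588 in replicate 1 and r = −0.582 in replicate 2, against values between −0.130 and 0.160 in the other 4 samples, across 16904 genes, which are not independent. The deviations of the 3 samples of an age cancel out for each gene, so these values cannot tell which sample departs. Markers of neighboring regions were partly higher at 16 months. The summed level of 8 thalamic markers was 83.8 ± 1.83 CPM at 6 months and 109 ± 4.66 CPM at 16 months, that of 4 dentate gyrus markers 49.5 ± 1.51 and 69.5 ± 2.14 CPM, and that of 8 choroid plexus markers 21.4 ± 0.71 and 31.2 ± 2.04 CPM (SD, n = 3 per age). Of these, 3 thalamic genes (Prkcd, Shox2 and Tcf7l2), 3 dentate gyrus genes (Dsp, Lct and C1ql2) and 1 choroid plexus gene (Ttr) were called higher in the edgeR fit. In that fit, 0.783% of all tested genes were called higher. Ttr alone had 8.95 ± 0.573 and 17.8 ± 1.08 CPM, and the other 7 choroid plexus markers together 12.4 ± 0.159 and 13.4 ± 1.16 CPM. Among these 7, Otx2, Clic6, Folr1 and Sostdc1 had log2 fold changes of 0.95, 0.40, 0.37 and 0.32. Those of Kl, Kcnj13 and Prlr were −0.02, −0.03 and −0.01. Different dissection and different expression cannot be told apart here, and the part of these markers in the results below was not tested.

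At 16 months, the level of the 10 genes ranged from nearly that of 6 months to 0.207 times that level. The log2 fold changes, 16 over 6 months, lay between −2.28 for Itgax and −0.07 for Axl and Lpl, and 10 of 10 were negative. In 8 of the 10 genes each sample of 16 months lay below each sample of 6 months, as in 11.5% of the 17120 tested genes. In the fit across all genes (edgeR's quasi-likelihood test, Benjamini-Hochberg adjusted p under 0.05), Itgax, Clec7a, Tyrobp, Spp1 and Lyz2 were called lower and none was called higher. Of all tested genes, 0.888% were called lower, 0.783% higher and 1.67% in either direction. These counts are not evidence for the set, because its genes were chosen with this comparison known. Itgax, Clec7a and Cst7 also passed the filter on low counts through their samples of 6 months, since at most 1 sample of 16 months reached the cutoff of 0.295 CPM.

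**Figure D1:**
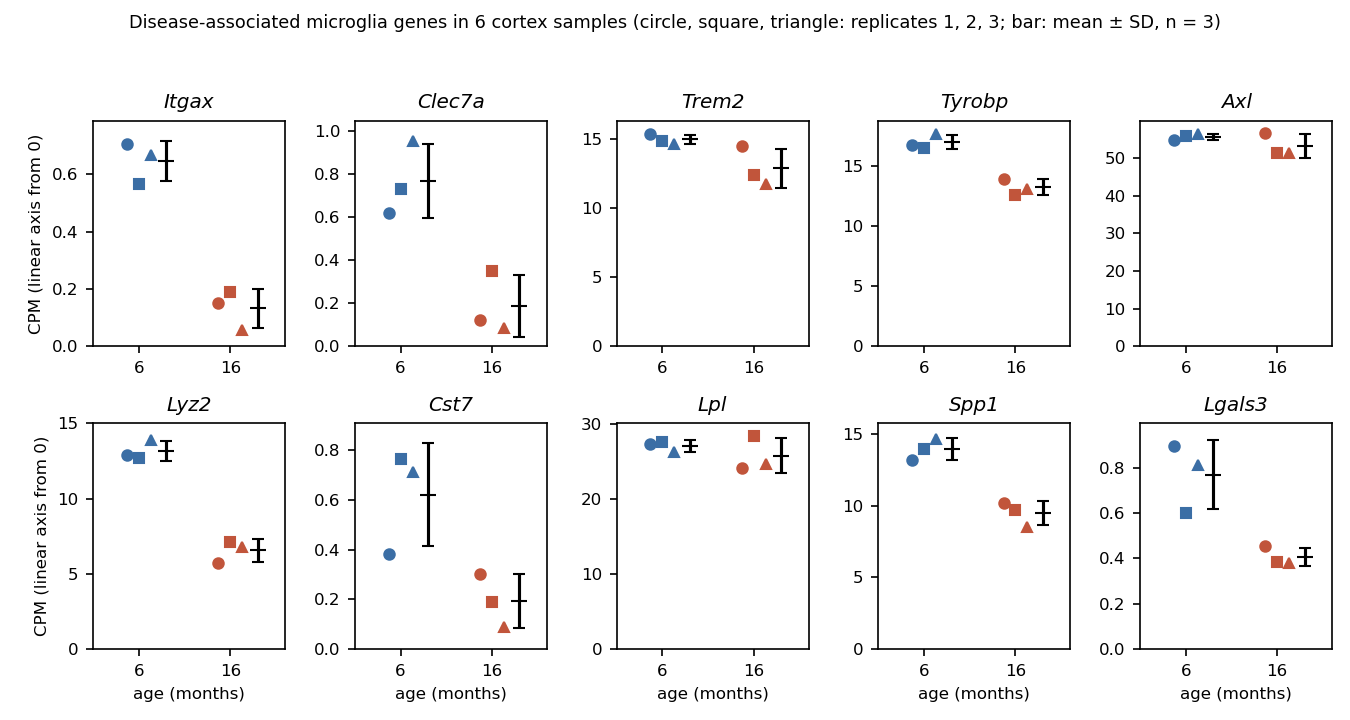
Level of each disease-associated microglia gene in CPM against age in months, one symbol per sample (circle, square and triangle for replicates 1, 2 and 3) with the mean and SD (n = 3). The ages lie apart for 8 genes and overlap for Axl and Lpl; the lowest levels are those of Itgax, Clec7a, Cst7 and Lgals3, which stay below 1 CPM.

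Among the receptors, Trem2 binds lipids, lipoproteins and apoptotic cells, and signals through the adaptor encoded by Tyrobp, also known as DAP12. Trem2 (chromosome 17, 48346401 to 48354147, GRCm38) had 15.4, 14.9 and 14.7 CPM at 6 months and 14.5, 12.4 and 11.8 CPM at 16 months. The highest sample of 16 months, replicate 1, came close to the lowest of 6 months, and the log2 fold change of −0.22 ± 0.08 (SE) was not called. Tyrobp (chromosome 7, 30413760 to 30417585) had 16.7, 16.5 and 17.6 CPM at 6 months and 13.9, 12.6 and 13.1 CPM at 16 months. The ages lay clearly apart for Tyrobp, with a mean level 21.9% lower and a log2 fold change of −0.36 ± 0.07 (SE). Both genes were measured by at least 388 counts in each sample, against at most 42 in Clec7a, Itgax, Lgals3 and Cst7.

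Clec7a and Itgax are the receptors most closely tied to the activated state. Clec7a encodes Dectin-1, a receptor for fungal beta-glucans that signals through SYK, and is annotated as a polymorphic pseudogene in GENCODE M21 (chromosome 6, 129461591 to 129472779). It had 0.619, 0.733 and 0.954 CPM at 6 months, from 29, 22 and 40 counts, and 0.121, 0.351 and 0.0878 CPM at 16 months, from 4, 11 and 3 counts. Replicate 2 of 16 months stood between the other aged samples and those of 6 months, and the log2 fold change was −2.05 ± 0.41 (SE). Itgax encodes CD11c, the alpha X integrin that pairs with the beta chain of Itgb2 (chromosome 7, 128129547 to 128150657). It had 33, 17 and 28 counts at 6 months (0.704, 0.567 and 0.667 CPM) and 5, 6 and 2 counts at 16 months (0.151, 0.191 and 0.0586 CPM). Every aged sample lay well below every sample of 6 months, and the mean level was 0.207 times that of 6 months, with a log2 fold change of −2.28 ± 0.35 (SE), the largest among the 10 genes. The closest relative in sequence, Itgad, shares 95% of the bases with Itgax over an aligned stretch of 758 bases.

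Axl, a receptor tyrosine kinase of the TAM family that binds Gas6 and takes part in the removal of apoptotic cells, is also transcribed outside microglia, for example in vessels and astrocytes. It had the highest CPM of the 10 genes, with 54.7, 55.7 and 56.2 CPM at 6 months and 56.7, 51.3 and 51.2 CPM at 16 months (chromosome 7, 25757273 to 25788705). The ages overlapped, since replicate 1 of 16 months was the highest of all 6 samples, and the log2 fold change was −0.07 ± 0.06 (SE).

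For Spp1 and Lgals3, the genes of osteopontin and galectin-3, each sample of 16 months lay below each sample of 6 months. Spp1 encodes osteopontin, a matrix protein that binds integrins and CD44 and is made by activated microglia as well as by some neurons. It had 13.2, 14 and 14.7 CPM at 6 months and 10.2, 9.70 and 8.55 CPM at 16 months (chromosome 5, 104435118 to 104441050). The samples of the ages were separated by a wide gap, the mean was 32.0% lower, and the log2 fold change was −0.56 ± 0.08 (SE). Of the exonic bases of Spp1, 18.8% also belong to the gene model Gm42793 on the same strand, so reads there may have been left out as ambiguous. Lgals3 encodes galectin-3, a lectin that binds beta-galactosides and damaged lysosomes. It had 42, 18 and 34 counts at 6 months and 15, 12 and 13 counts at 16 months (0.896, 0.600 and 0.811 against 0.453, 0.383 and 0.381 CPM; chromosome 14, 47367751 to 47386160). The groups did not overlap, but the log2 fold change of −0.95 ± 0.24 (SE) was not called.

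The lysosomal and lipid genes were divided. Lyz2 encodes lysozyme M, which cleaves bacterial cell walls and is made by macrophages, monocytes and neutrophils. It had 12.9, 12.7 and 13.9 CPM at 6 months and 5.73, 7.15 and 6.79 CPM at 16 months (chromosome 10, 117277331 to 117282321). The spread within either age was small beside the gap between them, and the mean level was 0.498 times that of 6 months (log2 fold change −1.01 ± 0.09, SE). Its neighbor and closest relative Lyz1, with 95.8% identity over 1264 aligned bases, had at most 2 counts in any sample.

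Cst7 encodes cystatin F, an inhibitor of lysosomal cathepsins. It had 18, 23 and 30 counts at 6 months and 10, 6 and 3 counts at 16 months (0.384, 0.767 and 0.715 against 0.302, 0.191 and 0.0878 CPM; chromosome 2, 150570415 to 150578944). Replicate 1 of 6 months and replicate 1 of 16 months nearly met, and the log2 fold change of −1.63 ± 0.43 (SE) was not called. Lpl encodes lipoprotein lipase, which releases fatty acids from lipoproteins and is also transcribed by neurons and oligodendrocyte precursors. It had 27.3, 27.6 and 26.2 CPM at 6 months and 24.1, 28.4 and 24.7 CPM at 16 months (chromosome 8, 68880491 to 68907448). The ages overlapped for Lpl, with replicate 2 of 16 months the highest of the 6 samples, and the log2 fold change was −0.07 ± 0.07 (SE).

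Levels of different genes were compared per length, as CPM per kilobase of exonic sequence (RPKM). At 6 months, Tyrobp was the highest with 25.4 RPKM, followed by Axl with 11.0, Lyz2 with 10.01, Spp1 with 8.47, Trem2 with 3.03 and Lpl with 2.58 RPKM. Cst7 (0.631), Lgals3 (0.414), Clec7a (0.291) and Itgax (0.135 RPKM) formed the lower end of the order. Neighbors in this order overlapped in their samples only between Cst7 and Lgals3 and between Lgals3 and Clec7a. At 16 months Tyrobp (19.8 RPKM) and Axl (10.5 RPKM) kept the first places, whereas Lyz2 with 4.98 RPKM stood below Spp1 with 5.76 RPKM. The samples of these last genes overlapped, as did those of Trem2 and Lpl (2.60 and 2.46 RPKM) and each neighboring pair among Lgals3, Cst7, Clec7a and Itgax (0.218, 0.196, 0.0707 and 0.0278 RPKM). The 4 genes whose log2 fold change lay below −1 were thus Lyz2, of the upper part of the order, and Cst7, Clec7a and Itgax, of its lower end.

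**Figure D2:**
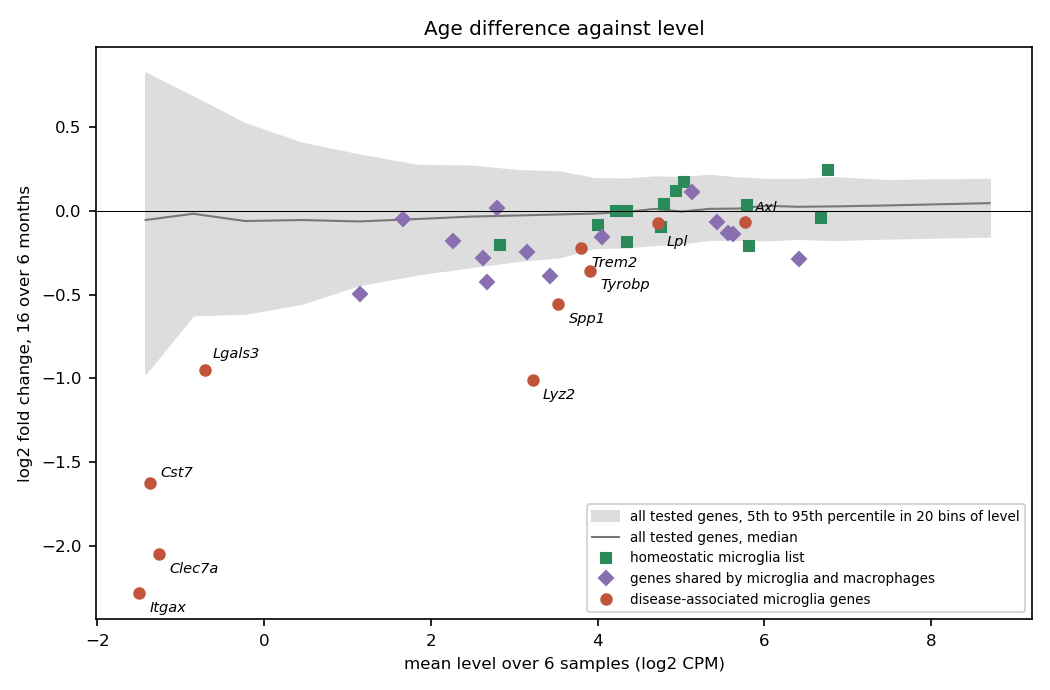
Log2 fold change (16 over 6 months) against mean level (log2 CPM over the 6 samples) for the disease-associated genes (circles), the homeostatic list (squares) and genes shared by microglia and macrophages (diamonds), with the band from the 5th to the 95th percentile of all 17120 tested genes in 20 bins of level (gray band). Itgax, Clec7a, Cst7, Lyz2, Lgals3, Spp1 and Tyrobp lie below the lower edge of the band, and Trem2, Axl and Lpl lie within it.

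The homeostatic genes of microglia, of which the 13 on the list were all tested, had fold changes on both sides of 0. Their median log2 fold change was −0.001, against 0.001 for all tested genes. That of the 10 disease-associated genes was −0.753, or −0.359 for the 7 with at least 10 counts in every sample. Both values are descriptions only, because the disease-associated genes were chosen with this comparison known. None of the 13 was called with edgeR (quasi-likelihood, Benjamini-Hochberg adjusted), and 2 had an unadjusted p under 0.05, against 2987 of all 17120 tested genes. DESeq2's Wald test called 1, Csf1r. Csf1r, the receptor for the survival factors CSF1 and IL-34, had 99.3 ± 5.19 CPM at 6 months and 118 ± 7.51 CPM at 16 months (SD, n = 3 each). Its log2 fold change was 0.25, with an adjusted p = 0.0926 in edgeR. Without replicate 1 of 16 months, 1 of the 13 genes was called, Csf1r, beside 5.73% of all tested genes. Without replicate 2 of 16 months, 3 were called, Csf1r, Gpr34 and P2ry12, beside 12.7%. With all samples, the log2 fold changes of Gpr34 and P2ry12 were negative (−0.18 and −0.21), unlike that of Csf1r. Tmem119 and Cx3cr1 had log2 fold changes of 0.04 and 0.04.

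Summed over the 13 homeostatic genes, the level was 523, 510 and 523 CPM at 6 months and 526, 535 and 525 CPM at 16 months. The summed level of the 10 disease-associated genes was 143, 144 and 146 CPM at 6 months and 126, 123 and 117 CPM at 16 months. Most of the latter sum came from Axl and Lpl, whose ages overlapped, so leaving them out enlarges the relative difference. A further sum left out Lpl, Spp1 and Axl, which other brain cells also transcribe, and kept Lyz2, which other macrophages also make. It was 47.6, 46.8 and 49.3 CPM at 6 months and 35.1, 33.3 and 32.3 CPM at 16 months. Relative to the homeostatic sum, the 10 genes amounted to 27.8% ± 0.482 at 6 months and 23.0% ± 0.886 at 16 months, and the genes without those 3 to 9.23% ± 0.163 and 6.35% ± 0.284 (SD, n = 3 each). The aged samples lay below those of 6 months on both scales, and no test was made because the members were chosen with these values known.

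**Figure D3:**
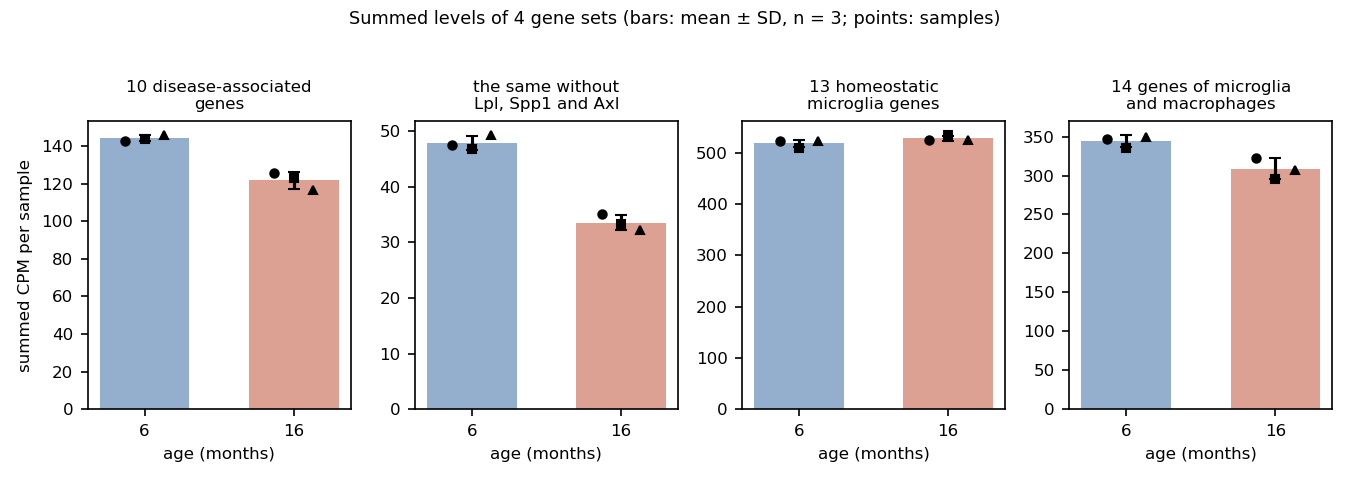
Summed CPM per sample against age in months for the 10 disease-associated genes, the same without Lpl, Spp1 and Axl, the 13 homeostatic genes and 14 genes shared by microglia and macrophages; bars give the mean and SD (n = 3) and points the samples. The disease-associated sums and the shared genes are lower at 16 months in every sample, whereas the homeostatic sum lies between 510 and 535 CPM in all 6 samples.

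Genes that microglia share with other macrophages lay in between. Of 14 tested, Aif1, Ly86 and Ctss were called lower (edgeR's quasi-likelihood test, Benjamini-Hochberg adjusted p = 0.0418, 0.0308 and 0.0397), beside 0.888% of all tested genes. None was called higher, and the median log2 fold change over the list was −0.167. Ctss, the cysteine protease cathepsin S and the most abundant gene of the list, had 93.9 ± 1.00 CPM at 6 months and 77.1 ± 4.67 CPM at 16 months (SD, n = 3 each; log2 fold change −0.28 ± 0.06, SE). Aif1, which encodes the microglial marker protein IBA1, had 7.34 ± 0.541 and 5.44 ± 0.215 CPM (log2 fold change −0.43 ± 0.09, SE). Ly86, the partner of the receptor RP105, had 12.2 ± 0.325 and 9.34 ± 0.630 CPM (log2 fold change −0.39 ± 0.07, SE). The complement gene C1qb, with 51.5 ± 1.71 and 46.9 ± 5.17 CPM, was not called (adjusted p = 0.409), and Spi1, which encodes PU.1, had a log2 fold change of −0.05. Without any 1 sample of 6 months, or without replicate 3 of 16 months, 0 of the 14 were called, beside 0.318%, 0.328%, 0.277% and 0.335% of all tested genes. Without replicate 1 of 16 months 5 were called, beside 5.73%, and without replicate 2 of 16 months 3, beside 12.7%. The summed level of the 14 genes was 344 ± 8.13 CPM at 6 months and 308 ± 13.7 CPM at 16 months (SD, n = 3 each).

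A further 32 genes of the disease-associated state, which were not members, were matched for 31, and 28 were tested. None was called in the edgeR fit (quasi-likelihood, Benjamini-Hochberg adjusted). At an unadjusted p under 0.05 in edgeR there were 8 of the 28 genes, against 2987 of all 17120 tested genes. DESeq2's Wald test called B2m and Cd63, both lower, beside 1.24% of all genes called lower in that test. The median log2 fold change was −0.081, 20 of 28 values were negative, against 49.7% of all tested genes, and in 10 genes each sample of 16 months lay below each of 6 months, against 11.5%. Without replicate 1 or 2 of 16 months, edgeR called 5 and 4 of the tested genes of the list, beside 5.73% and 12.7% of all tested genes in the same fits. The most abundant genes of the list did not pass the test. Fth1, the heavy chain of the iron store ferritin, had 1790 ± 38.3 and 1750 ± 89.7 CPM (SD, n = 3 each; log2 fold change −0.03, adjusted p = 0.843). Apoe, the main lipid carrier of the brain, which astrocytes also make, had 1320 ± 46.9 and 1290 ± 93.1 CPM (log2 fold change −0.03, adjusted p = 0.825).

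The most negative log2 fold changes of this list, named after their values were seen, were those of Cybb, the catalytic subunit of the phagocyte NADPH oxidase (−0.81, adjusted p = 0.0935), Ccl6, a chemokine (−0.70, adjusted p = 0.136), and Cd52, a surface glycoprotein of leukocytes (−0.67, adjusted p = 0.0761; all from edgeR, Benjamini-Hochberg adjusted). Cathepsins B, D and L, the lysosomal proteases encoded by Ctsb, Ctsd and Ctsl, had log2 fold changes of 0.05, 0.00 and −0.05. The highest value of the list was 0.31, for Mamdc2.

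The signaling chain behind TREM2 and Dectin-1 showed no called gene among 13 tested, with a median log2 fold change of 0.023. There were 3 genes at an unadjusted p under 0.05 in edgeR, against 2987 of all 17120 tested genes, and DESeq2's Wald test called 0. Without replicate 2 of 16 months 2 of the 13 genes were called, Inpp5d and Ms4a6d, beside 12.7% of all tested genes. Syk, the kinase that binds the phosphorylated adaptor, had a log2 fold change of 0.28 (adjusted p = 0.180, edgeR with Benjamini-Hochberg adjustment), and Plcg2, the phospholipase behind it, of 0.06. The sheddases Adam10 and Adam17, which cut TREM2 from the cell surface and are transcribed by many cell types, had log2 fold changes of 0.04 and −0.06 (adjusted p = 0.801 and 0.654).

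Among 17 tested ligands, partners and relatives of the members, 1 gene was called, beside 1.67% of all tested genes. Lgals1, which encodes galectin-1, was lower with 11.9 ± 0.377 CPM at 6 months and 9.08 ± 0.494 CPM at 16 months (SD, n = 3 each; log2 fold change −0.40 ± 0.07, SE; adjusted p = 0.0274, edgeR with Benjamini-Hochberg adjustment). Without any 1 sample of 6 months, or without replicate 3 of 16 months, 0 genes of this list were called, and without replicate 1 or 2 of 16 months Lgals1 and Mertk were called, beside 5.73% and 12.7% of all tested genes. Itgb2, the chain that pairs with the product of Itgax, had a log2 fold change of −0.08, and Itgam, its other alpha chain in microglia, of 0.04. Gas6 and Pros1, the ligands of the TAM receptors, had log2 fold changes of −0.01 and 0.02, and the related receptors Mertk and Tyro3 of 0.20 (adjusted p = 0.0784) and 0.08. Cst3, the abundant secreted relative of Cst7, had 1230 ± 17.4 and 1150 ± 58.5 CPM (SD, n = 3 each; log2 fold change −0.10, adjusted p = 0.374).

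Other cells that can contain transcripts of the members were measured by fixed lists of markers. Neutrophil and monocyte markers, which share Lyz2, were near the detection limit, as 0 of 11 passed the filter and their summed level was 0.901 ± 0.0893 CPM at 6 months and 1.06 ± 0.126 CPM at 16 months (SD, n = 3 each). The defining genes S100a8, S100a9 and Ccr2 had between 1 and 17 counts per sample, and Ly6c2 had 0 counts in each sample of 6 months and 1 in each of 16 months. Border macrophages, which also make Lyz2 and lie in meninges and vessel walls, had summed levels of 32.2 ± 0.628 and 32.3 ± 2.04 CPM over 9 markers (median log2 fold change −0.007, from −0.62 for Ms4a7 to 0.50 for Lyve1). Most of this sum came from Stab1, with 18.9 ± 0.464 and 19.6 ± 2.37 CPM. Mrc1 had 5.24 ± 0.259 and 4.19 ± 0.623 CPM. None of the 9 was called. Each sample of 16 months lay below each of 6 months in 2 of them, and above in 3. Of the dendritic cell markers, which share Itgax, 5 of 8 were tested, with a median log2 fold change of −0.075. Cd209a had the lowest value of these, −1.15 (adjusted p = 0.107, edgeR with Benjamini-Hochberg adjustment), with 46, 22 and 35 counts at 6 months and 8, 20 and 10 counts at 16 months, whereas Xcr1, Clec9a and Ccr7 had at most 14 counts in any sample. The median of the dendritic list was the value of Flt3. Flt3 and Zbtb46 made up most of its summed level, with 14.8 and 16.5 of 33.5 CPM at 6 months.

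The summed levels of mural and fibroblast markers (130 ± 0.949 and 115 ± 5 CPM) and of endothelial markers (97.2 ± 0.307 and 89.8 ± 3.95 CPM) were lower at 16 months. That of oligodendrocyte precursor markers was higher (71.5 ± 1.31 and 83.8 ± 3.78 CPM, all with SD, n = 3 each). No gene of these 3 lists was called in the edgeR fit. In this order of lists, 2 of 5, 1 of 4 and 1 of 2 tested genes had an unadjusted p under 0.05, against 2987 of all 17120 tested genes. DESeq2's Wald test called 0, 0 and 1 genes of these lists, the last being Pdgfra. The summed level of 5 astrocyte markers was 1470 ± 13.5 CPM at 6 months and 1560 ± 62.7 CPM at 16 months. At an unadjusted p under 0.05 in edgeR there were 4 of the 5, against 2987 of all 17120 tested genes. Aldh1l1, Gja1 and Slc1a3 had positive log2 fold changes of 0.25, 0.22 and 0.20 and were not called, and that of Aqp4 was −0.03. Only Gfap was called, beside 0.888% of all tested genes called lower. Gfap, which encodes an intermediate filament of astrocytes, was lower, with 259 ± 5.24 and 187 ± 9.89 CPM (SD, n = 3 each; log2 fold change −0.47, adjusted p = 0.00332, edgeR), and was also called in 6 of 6 fits that left out 1 sample. The part of these cell types in the levels of the members was not tested.

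The genes most like the members over the 6 samples were found by correlation with the mean of the 10 standardised log2 CPM profiles. They were Eif3h (r = 0.9959), H2-K1 (r = 0.9944), Fam181a (r = 0.9922), Parp3 (r = 0.9921) and D630023F18Rik (r = 0.9915). Their own log2 fold changes lay between −0.81 and −0.13. In all, 125 genes outside the members had r above 0.95, and with 6 samples in 2 age groups such values follow largely from the age difference itself, so that the likeness is a description only.

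The number of the 10 genes called depended on the samples in the fit. The members were chosen with this comparison known, so these counts describe the fits and are not evidence for the set. In the fit with all samples, Itgax, Clec7a and Cst7 passed the filter on low counts through their samples of 6 months. Without replicate 1, 2 or 3 of 6 months, or without replicate 3 of 16 months, 1 gene was called lower in each fit, which was Lyz2, beside 0.156%, 0.179%, 0.133% and 0.168% of all tested genes (edgeR, Benjamini-Hochberg adjusted). Without replicate 1 of 16 months 7 genes were called lower, beside 2.79% of all genes, and without replicate 2 of 16 months 5 genes, beside 6.4%. Leaving out both of these samples, whose levels followed the GC content, was added after seeing the data, left 1 aged sample that was assumed to vary like the others, and called 7 genes, beside 4.49%. Offsets for GC content and gene length called 8 of the 10 genes lower, all but Axl and Lpl, beside 6.72% of all genes, and 8 with a replicate block as well, beside 8.59%. With the replicate block alone 6 genes were called, beside 2.34%. Without a filter on low counts 6 genes were called, beside 1.29%, and with at least 10 counts required in every sample 3 of 7 tested genes, beside 0.892%. The size factors of DESeq2 in edgeR called 5 genes, beside 0.888%, and DESeq2's Wald test called 5, beside 1.24%, or beside 0.686% without its independent filtering. The fold changes themselves stayed negative for each gene in every fit. Across the fits that left out 1 sample, that of Lyz2 lay between −1.07 and −0.92, that of Spp1 between −0.61 and −0.49, that of Itgax between −2.61 and −1.92, and that of Clec7a between −2.84 and −1.70.

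**Figure D4:**
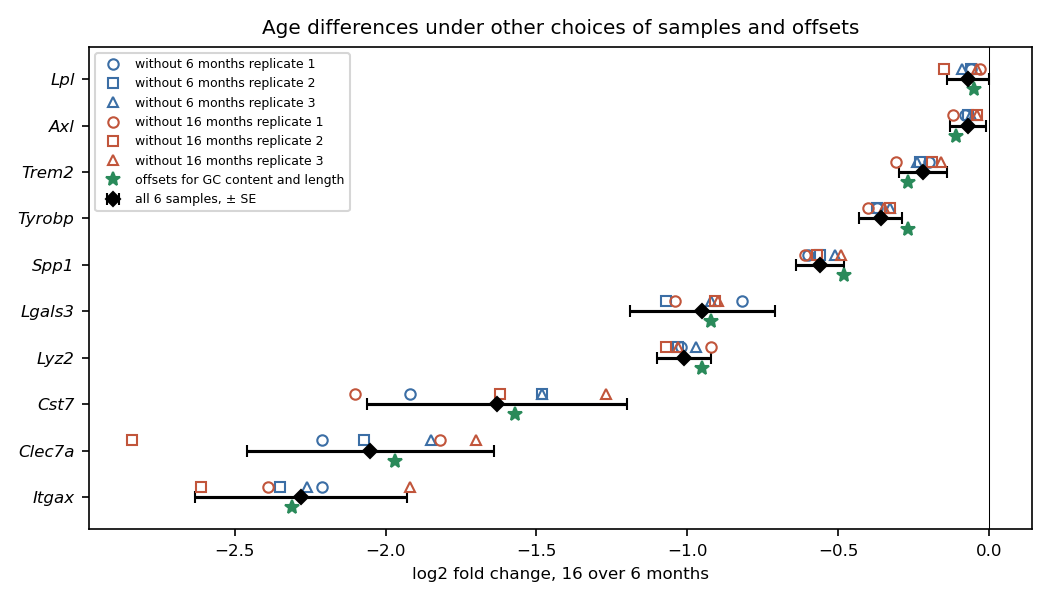
Log2 fold change (16 over 6 months) of the 10 genes with all samples (diamonds with SE), without each sample in turn (open symbols) and after offsets for GC and length (stars). Each value lies below 0; those of Cst7, Clec7a and Itgax, which rest on few counts, are spread most widely.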

How the data were processed

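Whole cortical hemispheres of 3 C57BL/6 mice of 6 months and 3 of 16 months were measured by RNA sequencing. The authors trimmed the paired-end reads, aligned them to mm10 with STAR and counted reads per Ensembl gene with HTSeq, and the deposited values are raw counts without normalization. The submitters' processing notes list STAR 2.3.0e and featureCounts 1.5.0-p1, which differs from the methods; the counts end with summary entries in the form of HTSeq, which were left out (reads on no gene were 22.0% to 27.7% of gene, ambiguous and no-gene reads together). The methods state default settings where nothing else is named, and the Ensembl release is not given in the sources used here.

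Of 38355 genes, 36602 were matched to GENCODE M21 (GRCm38, the same build as mm10), which gave names, positions and exonic lengths. The ages were compared by edgeR (version 4.0.16, R 4.3.3; TMM factors, filterByExpr, 17120 genes tested, quasi-likelihood test, Benjamini-Hochberg adjustment at 0.05, no covariates). Log2 levels used a prior count of 2, SE values were derived from the quasi-likelihood F statistic, and CPM were taken after TMM normalization. The scripts were tested on simulated counts with known changes. Related sequences were searched with blastn 2.17.0, and figures drawn with matplotlib 3.10.9. The members and gene lists were chosen with earlier results of these data known. All 10 members were named, with the called genes (at most 5) and the 2 most abundant genes of each list, the 5 genes most like the members by Pearson's r, and members of marker lists beside the result of the list. Further genes of the lists were named for their role or after their values were seen. 1 gene that this rule names is not reported here.

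Samples of one age were compared and none was deposited more than once. The labels name separate samples, and the study counts them as separate brains. Alternatives were other size factors and filters, DESeq2 1.42.0, a replicate block, offsets for GC content and length, and each sample left out.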

Additional observations from a re-analysis of the deposited data

How the results depend on the processing

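With all samples, 286 genes were called, 134 higher and 152 lower. Each of the 10 members kept a negative log2 fold change under every alternative that tested it. The alternatives refit the same samples, and the members were chosen with this comparison known. Their signs and the counts of members called are therefore descriptions only. Same-numbered samples of the 2 ages deviated together with r = 0.18, 0.096 and 0.035 across genes, which was too weak in replicates 2 and 3 to take the numbers as a pairing, although 5 of 6 samples correlated best with their own number, a hint from the data and not from the design. The cause of the moves below was not tested. Without a filter on low counts, 648 of 27569 tested genes were called in all, 293 higher and 355 lower. The lists had 4 other disease-associated genes and 1 homeostatic gene called. The median log2 fold change was −0.105 for other disease-associated genes and −0.007 for signaling genes. With at least 10 counts in every sample, 3 of 7 tested members were called lower, beside 0.892% of all genes. Itgax, Clec7a and Cst7 were not tested in that fit. The median log2 fold change was −0.059 for other disease-associated genes and −0.359 for the 7 members that remained. With DESeq2's Wald test, 468 of 17948 tested genes were called in all, 245 of them higher. The lists had 2 other disease-associated genes and 1 homeostatic gene called. The median log2 fold change was −0.1 for other disease-associated genes and 0.001 for signaling genes. Without the independent filtering of DESeq2, 394 of 27569 tested genes were called in all, 205 of them higher. The lists had 1 other disease-associated gene called. The median log2 fold change was −0.1 for other disease-associated genes and 0.001 for signaling genes. With a replicate block, 783 of 17120 tested genes were called in all, 383 higher and 400 lower. The lists had 4 other disease-associated genes and 1 homeostatic gene called. With offsets for GC content and length, 2376 of 17120 tested genes were called in all. Of these, 1226 were higher, and 1150, or 6.72% of all tested genes, were lower. Beside this share, 8 members were called lower. The lists had 8 other disease-associated genes, 3 ligand and partner genes and 3 homeostatic genes called. The median log2 fold change was −0.056 for other disease-associated genes, −0.004 for signaling genes and −0.022 for homeostatic genes. With these offsets and the replicate block, 3138 of 17120 tested genes were called in all. Of these, 1667 were higher, and 1471, or 8.59% of all tested genes, were lower. Beside this share, 8 members were called lower. The lists had 9 other disease-associated genes, 2 ligand and partner genes and 3 homeostatic genes called. The median log2 fold change was −0.055 for other disease-associated genes and −0.022 for homeostatic genes. Without both aged samples that followed GC content, added after seeing the data, 1786 genes were called in all, 971 genes were called higher, 815 genes were called lower, the lists had 6 other disease-associated genes, 2 signaling genes, 3 ligand and partner genes, 2 homeostatic genes called and the median log2 fold change was −0.044 for signaling genes, −0.034 for homeostatic genes, −0.834 for members. Without Lpl, Spp1 and Axl, the log2 ratio of summed member levels was −0.513 against −0.246 with all members, and relative to the homeostatic sum −0.54 against −0.274. The ages overlapped for Axl and Lpl, which made up most of the full sum, so leaving them out makes these ratios more negative. Leaving out each sample in turn, the number called ranged from 48 to 2211 for all genes, or 0.277% to 12.7% of those tested. It ranged from 25 to 1099 for genes higher, and from 23 to 1112, or 0.133% to 6.4%, for genes lower. For other disease-associated genes the number ranged from 0 to 5, and for signaling and for ligand and partner genes from 0 to 2 each. For homeostatic genes it ranged from 0 to 3, for shared macrophage genes from 0 to 5, and for members called lower from 1 to 7. The median log2 fold change then ranged from −0.086 to −0.045 for other disease-associated genes, from −0.026 to 0.023 for signaling genes, from −0.096 to −0.022 for ligand and partner genes, from −0.027 to 0.001 for homeostatic genes. Itgax, Clec7a, Cst7 and Lgals3 rest on at most 42 counts per sample, which limits their fold changes most.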
